A study of Rattus norvegicus with 24 samples.

Results

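Sertoli cells are the somatic cells of the seminiferous tubule that surround and feed the germ cells. The set described here holds 9 genes that mark them: Rhox5, Fabp3, Clu, Sox9, Wt1, Fshr, Gata4, Tf and Vim. All probe sets whose only annotated symbol was one of these names were taken, which gave 9 of the 31042 probe sets without controls and 6 of the 9 genes. In all, 14217 genes had a probe set of 1 symbol. Rhox5, Fabp3 and Vim had 1 probe set each, and Clu, Wt1 and Gata4 had 2 each. For Sox9 and Fshr no probe set carried the symbol alone or with another. The 2 probe sets annotated to Tf were shared with Srprb and were not named. Results below are therefore on 6 genes, and Sox9, Fshr and Tf are not analysed here.

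The study hybridised RNA from the testes of Fisher 344 rats to 24 Affymetrix Rat230_2 arrays, 4 in each of 6 groups. Tissue was detunicated and snap-frozen, so each value is the level in the whole testis and not in sorted Sertoli cells. Both fetal groups were sampled at gestational day 20 (GD20): 4 samples came from dams gavaged daily with corn oil and 4 from dams that received dibutyl phthalate (DBP), dissolved in the oil, at 50 mg/kg from gestational day 12 to 20. The DBP dams were killed 6 hours after the last dose, the sample of oil dam 2 was labelled as pooled, and for the oil dams no interval was given. The other 4 groups were peripubertal, at postnatal day 35 (PND35). The oil-oil and oil-DBP pups came from dams that had corn oil in pregnancy, and the DBP-oil and DBP-DBP pups from dams that had the same daily 50 mg/kg DBP. The second word of each name is the pup's own single gavage at PND35, of oil or of DBP at 500 mg/kg, given 6 hours before it was killed. Labels name the dam of no pup, so p-values measure the spread between these samples.

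Background to the genes is as follows. In the embryo WT1, GATA4 and SOX9 act together in the supporting cell lineage to turn it towards the Sertoli fate, and in the mature testis the same cells respond to follicle-stimulating hormone, through FSHR and cyclic AMP, and to androgen. Rhox5 is a homeobox gene on the X chromosome known as a target of the androgen receptor in Sertoli cells. Clusterin (Clu) is a secreted chaperone that mature Sertoli cells release in large amounts. Vimentin is the intermediate filament of Sertoli cells, and FABP3 binds fatty acids in the cytoplasm. Sertoli cells are not the sole source of several of these products: GATA4 is also made by Leydig cells, and vimentin by Leydig, peritubular, endothelial and blood cells. DBP is a plasticizer that is known as a testicular toxicant of the young rat, where vimentin filaments of Sertoli cells are known to collapse soon after exposure.

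Fabp3 and Vim were the members with an entry in the RefSeq promoter table (build GRCr8) that passed the test of acute DBP, in opposite directions. For that reason the 250 bases before the start of their entries are shown. The Fabp3 window lies at chr5:147935875-147936124 on the plus strand and the Vim window at chr17:81577011-81577260 on the plus strand. The annotated span of Fabp3 begins at 147936027, so the last part of its window lies inside the gene. Capitals mark matches to any of 4 motifs, each searched on both strands. The first is the E-box, spelled CANNTG. The second is the letters bound by GATA factors, spelled as their name. The third, TGTTCT, is one arm of an androgen response element. The last, AACAAT, is a core that SOX proteins bind.
Fabp3: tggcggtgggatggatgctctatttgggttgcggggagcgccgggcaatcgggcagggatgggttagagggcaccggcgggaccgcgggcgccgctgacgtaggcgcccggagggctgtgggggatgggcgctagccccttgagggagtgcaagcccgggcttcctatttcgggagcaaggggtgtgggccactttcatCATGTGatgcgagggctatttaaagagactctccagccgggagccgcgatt
Vim: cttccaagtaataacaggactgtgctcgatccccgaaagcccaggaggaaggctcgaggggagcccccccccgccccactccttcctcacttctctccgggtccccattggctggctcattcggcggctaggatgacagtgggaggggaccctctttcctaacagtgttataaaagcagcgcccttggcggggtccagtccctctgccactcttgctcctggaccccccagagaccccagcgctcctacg
The Fabp3 window held 1 E-box, 51 bases before the start of its entry, and none of the other motifs. That E-box lies inside the annotated span of Fabp3 and not before it. The Vim window held none of the 4 motifs. Of the 33469 promoters of the table over the same 250 bases, 65.5% held an E-box and 55.9% a GATA match. The androgen response arm was in 17.5% and the SOX core in 10.3%. Motifs were counted each on its own, whether or not they overlapped another. The matched letters are a description of these windows, and a window without them says nothing of the factor. Of the 9 genes, 5 had a promoter entry (Fabp3, Wt1, Fshr, Tf and Vim).

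Every array had the same trimmed mean of about 500.2, the array median was 164.4 to 174.5 at GD20 and 100.8 to 114.1 at PND35, and RNA integrity numbers were 8.2 to 8.9. The manufacturer's poly-A spike-in controls split the arrays into a high and a low class by their mean log2 level. At GD20 the low class was DBP dams 19 and 21, and at PND35 the high class was all 4 DBP-DBP pups and DBP-oil pups 132 and 134. RNA of the GD20 samples and of PND35 pups 104 (oil-oil) and 115 (oil-DBP) was extracted with Trizol, and of the other pups with a column kit. In bulk tissue, fewer cells of a type and less RNA per cell cannot be told apart, and this holds for every result below.

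**Figure D1:**
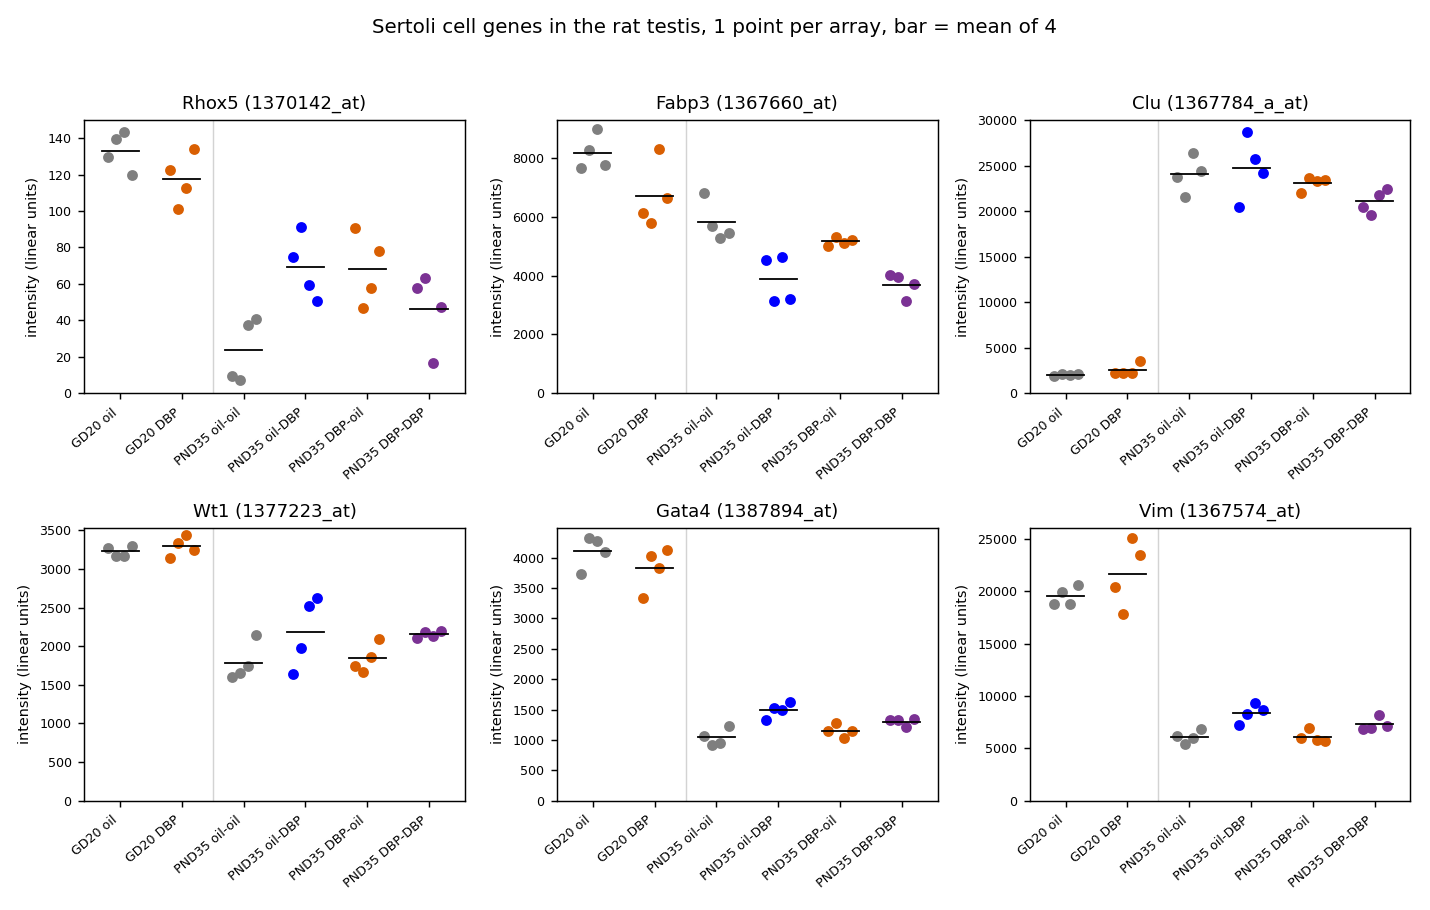
Deposited intensity (linear units, y axis from 0) of the 6 measured genes by their brightest probe set, with 1 point per array in the 6 groups on the x axis and a bar at the mean of 4. Clu stands at 1937 to 3491 in the fetal groups and at 19611 to 28668 in the peripubertal groups, Gata4 and Vim stand lower in the peripubertal groups, and Rhox5 is lowest in oil-oil.

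Among the comparisons of DBP, the acute dose at PND35 after fetal oil had the most members called. Rhox5, Gata4 and Vim rose and Fabp3 fell, 6 hours after a single dose, while Clu and Wt1 did not pass the test. That is 4 of 6 genes called by limma at an adjusted p under 0.05 (3 higher, 1 lower), against 8.92% of all probe sets (4.77% higher and 4.15% lower). The median change of the 6 genes was 0.30 and of all probe sets -0.08 (log2 differences on the log2(intensity + 16) scale, where an added 16 dampens the changes of dim genes). The 2770 probe sets behind that share became 4607 without oil-DBP pup 105, 1597 without pup 111 and 1716 without pup 121. The members were chosen with earlier results of these data known, and each was counted by its brightest probe set. Their count beside the share of all probe sets, dim ones included, is therefore a description.

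Fabp3, the fatty acid-binding protein, was measured at 6814, 5704, 5281 and 5458 units in oil-oil pups 104, 110, 114 and 120. In oil-DBP pups 105, 111, 115 and 121 it was measured at 4519, 3152, 4627 and 3209 units. All 4 DBP pups lay below all 4 oil pups. The means were 5814 ± 689 and 3877 ± 806 (SD, n = 4 each), a log2 difference of -0.66 ± 0.13 (SE) with an adjusted p of 0.00139 in limma. Fabp3 stayed past the threshold in 22 of 22 alternative settings, with differences of -0.76 to -0.54.

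Vim, the intermediate filament protein, was measured at 6209, 5403, 6021 and 6880 units in the same oil-oil pups. In the oil-DBP pups it was measured at 7224, 8261, 9302 and 8700 units. The groups did not overlap, and the lowest DBP pup (105) stood just above the highest oil pup (120). The difference was 0.38 ± 0.09 on the log2 scale (SE, n = 4 each; adjusted p = 0.0123, limma), from a mean of 6128 ± 608 to 8372 ± 876 (SD). It was no longer past the threshold without an intensity trend (adjusted p = 0.0566), without the 2 Trizol pups (0.33, adjusted p = 0.0804) or with RNA integrity as a covariate (adjusted p = 0.0593).

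Gata4, a zinc finger transcription factor of Sertoli and Leydig cells, was measured at 1064, 921, 954 and 1231 units in the oil-oil pups on its brighter probe set (1387894_at). In the oil-DBP pups it was measured at 1322, 1532, 1493 and 1619 units. No DBP pup was as low as the highest oil pup. The difference was 0.45 ± 0.10 (SE, n = 4 each; adjusted p = 0.0042, limma). The dimmer Gata4 probe set (1370293_at) gave 0.56 ± 0.21, with 76.6 to 162.5 units in oil-oil and 170.2 to 206.7 in oil-DBP, and did not pass the test (adjusted p = 0.111).

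Rhox5, the androgen-responsive homeobox gene, was dim at PND35. It was measured at 9.63, 7.47, 37.7 and 40.9 units in oil-oil pups 104, 110, 114 and 120. In oil-DBP pups 105, 111, 115 and 121 it was measured at 74.6, 91.3, 59.6 and 50.7 units. The groups did not overlap, and 2 of the oil pups lay under the added 16 units. The plain ratio of the means (69.0 over 23.9 units) was 2.88, and the log2 difference was 1.12 ± 0.34 (SE, n = 4 each), with an adjusted p of 0.0464 in limma. This call held in 8 of 21 alternative settings, where the difference ran from 0.56 to 1.73 and the adjusted p from 0.0256 to 0.152. It was lost when any of oil-oil pups 104 (0.93, adjusted p = 0.131) and 110 (0.91, adjusted p = 0.152) or oil-DBP pups 105 (1.07, adjusted p = 0.0648), 111 (1.02, adjusted p = 0.136), 115 (1.17, adjusted p = 0.0631) and 121 (1.23, adjusted p = 0.0634) was left out. It was also lost with adjacent pup numbers as a block.

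Clu, the secreted chaperone, ran from 21517 to 26382 units in oil-oil and from 20443 to 28668 in oil-DBP on its brighter probe set (1367784_a_at), and the groups overlapped throughout. Its log2 difference was -0.03 with a 95% interval of -0.21 to 0.16 (adjusted p = 0.894, limma). Wt1, the transcription factor, ran from 1597 to 2152 units in oil-oil and from 1635 to 2619 in oil-DBP on 1377223_at. Its difference was 0.21 with a 95% interval of -0.04 to 0.47 (adjusted p = 0.306, limma). The second Wt1 probe set (1369695_at) gave 0.39 (adjusted p = 0.167), and the second Clu probe set (1388246_at) gave -0.50 (adjusted p = 0.157), so the 2 Clu probe sets did not give the same size.

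**Figure D2:**
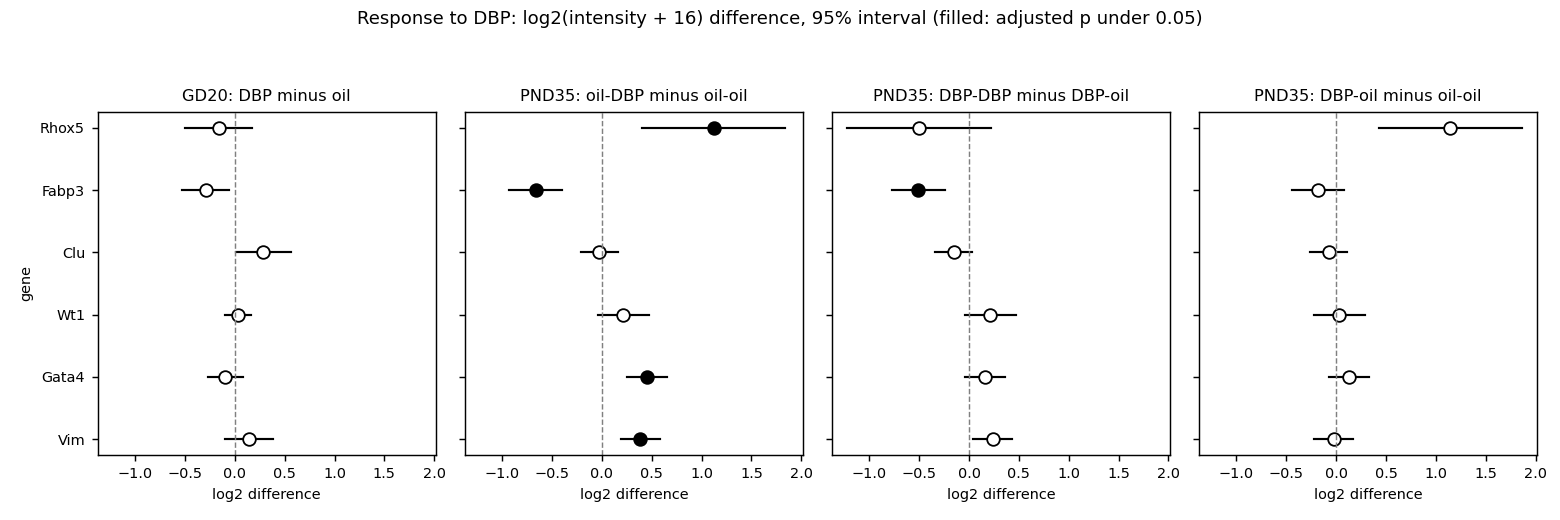
Log2 difference of each gene (x axis, log2(intensity + 16) scale) in 4 comparisons of DBP, with 1 row per gene, lines for the 95% interval and filled points for an adjusted p under 0.05. Fabp3 is filled on the lower side in both comparisons of the acute dose (-0.66 and -0.51), and Rhox5, Gata4 and Vim are filled only after fetal oil; the test of that difference between the fetal exposures passed for none of the 6.

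After fetal DBP the same acute dose was called for 1 of 6 members, against 5.23% of all probe sets (3.64% higher and 1.58% lower). Fabp3 fell again: DBP-oil pups 123, 127, 132 and 134 measured 4996, 5322, 5106 and 5228 units. DBP-DBP pups 124, 128, 133 and 135 measured 4013, 3943, 3121 and 3712 units. The groups did not overlap, and the difference was -0.51 ± 0.13 (SE, n = 4 each; adjusted p = 0.0172, limma). Pup 133 was the lowest, and the call was lost without it (-0.42, adjusted p = 0.0925) or without DBP-oil pup 127 (-0.49, adjusted p = 0.0544). With only the high spike-in class on both sides it was -0.47 (adjusted p = 0.169), and with the class as a covariate -0.47 (adjusted p = 0.138).

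The other members did not pass the test after fetal DBP. Vim was measured at 6031, 6897, 5757 and 5693 units in DBP-oil and at 6871, 6987, 8156 and 7090 in DBP-DBP, so that DBP-oil pup 127 overlapped DBP-DBP pup 124. Its difference was 0.24 ± 0.09 (SE, n = 4 each; adjusted p = 0.198, limma). Gata4 differed by 0.16 (95% interval -0.04 to 0.36, adjusted p = 0.499) and Wt1 by 0.21 (-0.04 to 0.47, adjusted p = 0.46). Wt1 ran from 1667 to 2099 units in DBP-oil and from 2102 to 2201 in DBP-DBP, which did not overlap by a margin of a few units. Clu differed by -0.15 (-0.34 to 0.03, adjusted p = 0.47), from 23100 ± 727 to 21090 ± 1295 units (SD, n = 4 each).

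Rhox5 had the opposite sign here. DBP-oil pups 123, 127, 132 and 134 measured 90.5, 46.6, 57.5 and 78.0 units, and DBP-DBP pups 124, 128, 133 and 135 measured 58.0, 63.4, 16.6 and 47.3. The groups overlapped, and pup 133 was far below the others. The difference was -0.50 with a 95% interval of -1.22 to 0.22 (adjusted p = 0.56, limma).

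The interaction of both exposures asks whether the acute response differed between the fetal exposures. It was called for 0 of 6 members and for 0% of all probe sets by limma, with 2 members and 1466 probe sets at an unadjusted p under 0.05. Those 2 were Rhox5 (-1.62 ± 0.49, SE; adjusted p = 0.954) and Gata4 (-0.29 ± 0.14; adjusted p = 0.954). For Fabp3 the difference of the responses was 0.16 (95% interval -0.21 to 0.53) and for Vim -0.15 (-0.42 to 0.13). A different response to the acute dose was thus not shown for any of the 6 genes.

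Fetal DBP without a second dose, DBP-oil minus oil-oil, asks what remained at PND35. It was called for 0 of 6 members (1 at an unadjusted p under 0.05, and 2299 probe sets in all), against 0.00322% of all probe sets. The 1 member was Rhox5. All 4 DBP-oil pups (46.6 to 90.5 units) lay above all 4 oil-oil pups (7.47 to 40.9), and the difference was 1.14 ± 0.34 (SE; adjusted p = 0.354, limma). Leaving out 1 array at a time moved it between 0.94 and 1.36, and with only the low spike-in class it was 1.16 (adjusted p = 0.734). RNA integrity numbers were 8.2 to 8.6 in oil-oil and 8.6 to 8.9 in DBP-oil, and with that number as a covariate the difference was 1.21 (adjusted p = 0.54). The comparison shares the oil-oil pups with that of the acute dose after fetal oil, where Rhox5 differed by 1.12. For the other 5 genes the differences lay between -0.18 (Fabp3, 95% interval -0.44 to 0.08) and 0.13 (Gata4, -0.07 to 0.33).

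Fetal exposure in pups that all had the acute dose, DBP-DBP minus oil-DBP, was called for 0 of 6 members and 0% of all probe sets by limma, with 1 member and 2791 probe sets at an unadjusted p under 0.05. All 4 DBP-DBP arrays were of the high spike-in class and all 4 oil-DBP arrays of the low one, so that both differences fall together and cannot be told apart. The 1 member was Clu, at -0.19 ± 0.09 on the brighter probe set and 0.48 ± 0.22 on the dimmer one (SE; adjusted p = 0.527 for both), which are opposite in sign. Gata4 differed by -0.17 (95% interval -0.37 to 0.03) and Vim by -0.17 (-0.37 to 0.02). Fabp3 differed by -0.02 (-0.29 to 0.24).

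In the fetal testis at GD20, DBP was called for 0 of 6 members (2 at an unadjusted p under 0.05, limma), against 0.441% of all probe sets, with 3652 probe sets at an unadjusted p under 0.05. The 137 probe sets behind that share became 42, 41, 36 and 29 without oil dams 2, 3, 4 and 5 in turn, and 74 without DBP dam 16. The 2 members were Fabp3 and Clu. Fabp3 measured 7649, 8288, 9001 and 7755 units in oil dams 2, 3, 4 and 5 and 6143, 5790, 8316 and 6626 in DBP dams 16, 18, 19 and 21. Dam 19 lay within the oil range and the other DBP dams below it. The difference was -0.29 ± 0.11 (SE, n = 4 each; adjusted p = 0.305, limma), and with only the high spike-in class, which leaves DBP dams 16 and 18, it was -0.45 (adjusted p = 0.0453).

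Clu at GD20 measured 1937, 2163, 1997 and 2055 units in the oil dams and 2172, 2221, 2260 and 3491 in the DBP dams. The groups did not overlap, though dam 16 lay only a few units above the highest oil dam, and dam 21 stood apart. The difference was 0.28 ± 0.13 (SE; adjusted p = 0.416, limma), and 0.12 without dam 21 (adjusted p = 0.483). In dam 21 the summed intensity of 7 spermatid markers was 4360 units, against 402.7 to 810.5 in the other 7 fetal samples, and that of 5 spermatocyte markers was 3743, against 1669 to 2528. Their part in the Clu value was not tested. The other 4 members differed by -0.16 (Rhox5) to 0.14 (Vim) on the log2 scale, each with a 95% interval that held 0. Vim was highest in dams 19 and 21, at 25078 and 23418 units, and dams 16 and 18 measured 20396 and 17811. With only the high spike-in class its difference was -0.03 (adjusted p = 0.94).

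Fetal and peripubertal testes were then compared. Clu was higher at PND35, and Gata4 and Vim were lower. With arrays centred on their median, Rhox5 was called lower in the oil groups and not in the DBP groups. All GD20 oil arrays were of the high spike-in class and all oil-oil arrays of the low one. RNA of all GD20 DBP samples was extracted with Trizol and of all DBP-oil pups with a column kit. Within each age comparison, age and that technical difference fall together and cannot be told apart. In the oil groups (oil-oil PND35 minus oil GD20, arrays centred on their median) 5 of 6 members were called, 1 higher and 4 lower, against 66.8% of all probe sets (41.6% higher and 25.2% lower). The share is near the background and is given as a description. The median change of the 6 genes was -0.61, and of all probe sets 0.34. That median moved with the scaling, to -0.31 on arrays as deposited, -0.01 with the 75th percentile and 0.00 after quantile normalization, and the share of the called probe sets that were higher moved from 62.3% to 32.2%, 44.8% and 46.2%. Changes relative to the median of all probe sets are therefore given beside the values of the members.

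Clu rose in both age comparisons. It measured 2038 ± 96.1 units in GD20 oil and 24030 ± 2006 in PND35 oil-oil (SD, n = 4 each), a plain ratio of 11.8. The lowest PND35 array of the 16 (19611 units) was above the highest fetal array (3491). The log2 difference was 4.20 ± 0.11 (SE; adjusted p = 1.4e-18, limma), which is 3.86 above the median of all probe sets, and it ran from 3.39 to 4.28 over 19 alternatives. The dimmer probe set gave 2.81 ± 0.30 (23.4 to 150.7 units).

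Gata4 and Vim fell with age. Gata4 measured 4103 ± 270 units in GD20 oil and 1043 ± 140 in oil-oil (SD, n = 4 each), with a log2 difference of -1.31 ± 0.09 (SE; adjusted p = 4.62e-11, limma), -1.65 relative to the median. The dimmer Gata4 probe set gave -1.14 (adjusted p = 0.000224). Vim measured 19510 ± 910 and 6128 ± 608 units, with -1.02 ± 0.10 (adjusted p = 8.79e-09), -1.36 relative to the median. For Vim and the brighter Gata4 probe set, every peripubertal array, in all 4 groups, lay below every fetal array as deposited. On the dimmer Gata4 probe set the ages overlapped, with 202.7 units in GD20 DBP dam 19 and 273.5 in DBP-DBP pup 135. The sign was negative for both genes under all 4 scalings.

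Rhox5 fell from 133 ± 10.5 to 23.9 ± 17.8 units in the oil groups (-1.36 ± 0.28, SE, n = 4 each; adjusted p = 0.000212, limma), -1.70 relative to the median. In the DBP groups (DBP-oil PND35 minus DBP GD20, other animals) it went from 118 ± 14.1 to 68.1 ± 19.8 units, with -0.09 ± 0.28 (adjusted p = 0.782), -0.38 relative to the median. On arrays as deposited the value in the DBP groups was -0.69 (adjusted p = 0.0359). The difference between both age changes, a test added after the values had been seen, was 1.27 ± 0.39 (adjusted p = 0.178), and was called for 0.29% of all probe sets. It rests on the same oil-oil pups as the comparisons at PND35.

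Wt1 was lower with age by a smaller margin, and the sign of Fabp3 turned on the scaling. Wt1 measured 3228 ± 68.8 units in GD20 oil and 1785 ± 252 in oil-oil (SD, n = 4 each). Its difference was -0.20 ± 0.09 (SE; adjusted p = 0.0404, limma), -0.54 relative to the median, and it ran from -1.09 to -0.14 over 19 alternatives with the call kept in 9. It was lost, among others, without any 1 of oil dams 2, 3, 4 and 5 or of oil-oil pups 104, 110 and 114, and was kept under all 4 scalings. The second Wt1 probe set gave -0.16 (adjusted p = 0.402), which was past the threshold under the other scalings. Fabp3 measured 8173 ± 618 and 5814 ± 689 units, and its difference was 0.16 ± 0.10 (adjusted p = 0.15) centred on the median, -0.49 (adjusted p = 0.000153) as deposited and -0.91 (adjusted p = 1.94e-09) after quantile normalization. Relative to the median of all probe sets it was -0.18 under the first 2 scalings and -0.91 under quantile normalization.

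In the DBP groups 5 of 6 members were called with age, 2 higher and 3 lower, against 63.9% of all probe sets (39.1% higher and 24.8% lower), and the median of all probe sets was 0.29. Clu differed by 3.81 ± 0.11 (SE; adjusted p = 7.21e-18, limma), Gata4 by -1.12 ± 0.09 and Vim by -1.22 ± 0.10, which were 3.52, -1.41 and -1.51 relative to that median. The dimmer Gata4 probe set differed by -0.37 (adjusted p = 0.177), -0.65 relative to the median, and its arrays overlapped between the ages. Wt1 differed by -0.24 (adjusted p = 0.019), -0.52 relative to the median, and the call was lost without DBP-oil pup 127. The second Wt1 probe set had the opposite sign, 0.14 (adjusted p = 0.494), or -0.15 relative to the median. Fabp3 was called higher at 0.23 (adjusted p = 0.0422), but lay at -0.05 relative to the median and at -0.37 as deposited. Its call higher was lost without any 1 of DBP dams 16, 18 and 21 or of DBP-oil pups 123, 127, 132 and 134, and 8 of 18 alternatives were past the threshold, in either direction.

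**Figure D3:**
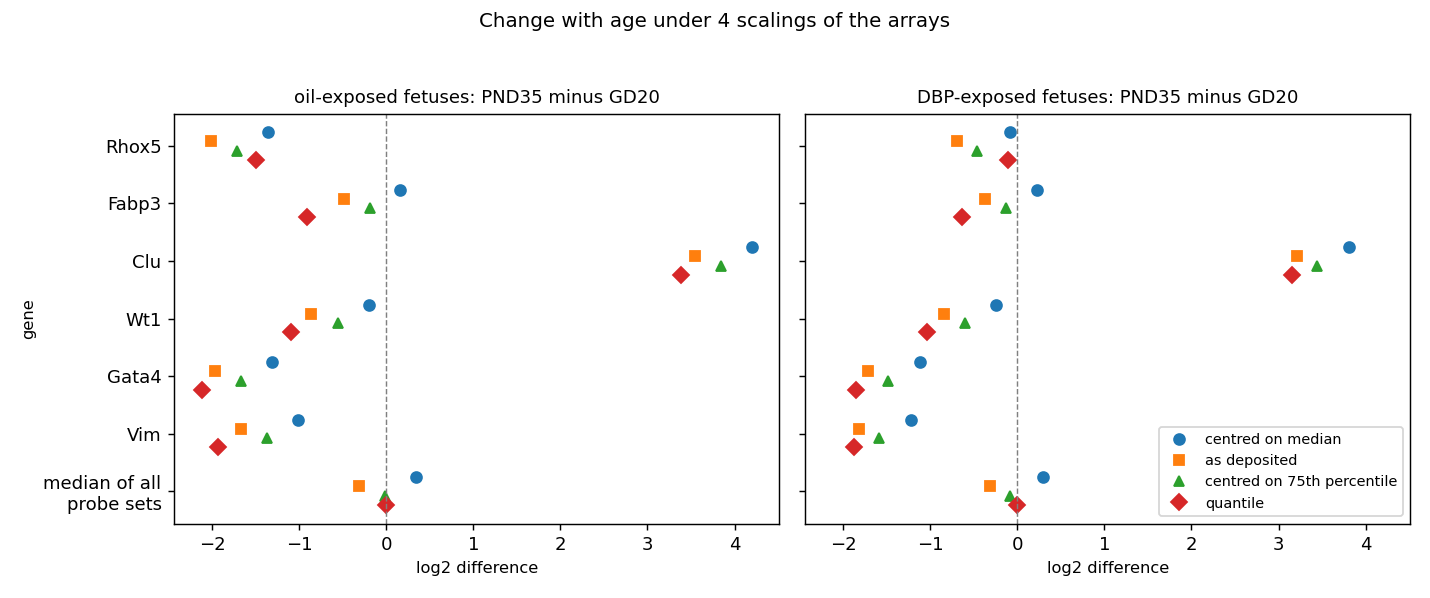
Log2 difference between PND35 and GD20 (x axis) for each gene and for the median of all probe sets (rows), under 4 scalings of the arrays (symbols), in oil-exposed and in DBP-exposed fetuses (panels). Clu is far to the right and Gata4 and Vim to the left under all 4, Fabp3 changes sign between scalings, and the median of all probe sets runs from -0.31 to 0.34 in the oil groups.

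Other cell types moved with age as well. Their counts are a description, beside 41.6% of all probe sets called higher and 25.2% called lower in the oil groups. All 5 spermatocyte markers and all 7 spermatid markers measured were higher at PND35 in the oil groups, with summed intensities of 1669 to 1982 and 429.7 to 504.4 units at GD20 and of 53010 to 61360 and 98080 to 130900 in oil-oil. Of the spermatid markers, Tnp2 averaged under 16 units in GD20 oil, and of the spermatocyte markers Sycp1 and Spo11 did. Of 8 Leydig cell markers 6 were lower, summed at 62120 to 65380 and 15840 to 21400 units, and of 7 peritubular myoid markers 6 were lower and 1 higher. As deposited, 8 of 8 Leydig markers and 6 of 7 myoid markers were lower and 0 of either higher. Of 6 endothelial markers 5 were lower and 1 higher (5 and 0 as deposited), and of 8 macrophage and leukocyte markers 2 were lower and 2 higher (4 and 1). Of 6 markers of blood, liver and epididymis 3 were lower and 2 higher (3 and 0), and of the 3 measured markers of gonocytes and spermatogonia 0 were lower and 1 higher (1 and 1). The 2 higher markers of blood, liver and epididymis were dim. Adam7 averaged 6.62 units in GD20 oil and 19.8 in oil-oil, and Defb1 averaged under 16 units in both. Of the lower ones, Apoa2 averaged under 16 units in oil-oil. The part of these cell types in the changes of Clu, Gata4, Vim and Rhox5 was not tested.

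Beside the members, 23 other genes of Sertoli cells were measured. With age 66.8% of all probe sets were called in the oil groups (41.6% higher and 25.2% lower), so the list counts are a description. With age, 11 rose and 8 fell in the oil groups with arrays centred on the median, and 9 rose and 12 fell as deposited, so the balance of this list turned with the scaling. Amh, the anti-Müllerian hormone of the immature Sertoli cell, fell from 14830 ± 621 to 318 ± 38.7 units (-4.82 ± 0.11, SE). Shbg, the androgen-binding protein, rose from 817 ± 56.7 to 6668 ± 854 units (3.65 ± 0.09), and Serpina5, a secreted protease inhibitor, rose by 6.22 ± 0.17. Among 18 genes listed for testis determination, 6 rose and 10 fell (3 and 12 as deposited). Lhx9, a homeobox gene of the early gonad, fell by 4.65 on the log2 scale (from 3175 ± 101 to 64.8 ± 7.71 units), and Amhr2, the receptor of AMH, rose by 2.73.

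Of 11 intermediate filament and linker genes beside Vim, 9 fell with age and 1 rose, with a median of -1.88 against 0.34 for all probe sets (0 higher and 10 lower as deposited). The list counts of this paragraph stand beside 66.8% of all probe sets called with age in the oil groups (41.6% higher and 25.2% lower). The keratins Krt8 and Krt18 measured 2492 ± 59.2 and 1528 ± 142 units at GD20 and 45.2 ± 8.38 and 7.54 ± 5.03 in oil-oil (SD, n = 4 each). Among 24 genes of FSH and cyclic AMP signalling, 9 rose and 14 fell (8 and 15 as deposited). Crem, a cyclic AMP response modulator known to be abundant in germ cells, rose by 4.03, and Inhba, an inhibin and activin subunit, fell from 6213 ± 439 to 30.7 ± 17.8 units. Of 14 genes of iron and fatty acid handling 7 rose and 5 fell, and 4 rose and 7 fell as deposited. Fabp9, a fatty acid-binding protein known from spermatids, rose by 6.73, and Cpt1a, which admits fatty acids to mitochondria, fell by 1.30 on the log2 scale. Of 9 genes set beside clusterin (chaperones, complement, lipoproteins) 3 rose, Hspa5 (1.39) and Apoe (1.47) among them, and 5 fell, C3 (-4.26) among them. Amh, Shbg, Serpina5, Lhx9, Amhr2, Krt8, Krt18, Inhba, Crem, Fabp9, Cpt1a, Hspa5, Apoe and C3 kept their sign under all 4 scalings, with Hspa5 the smallest at 0.31 after quantile normalization.

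The same lists were read after the acute dose, fetal oil first. Their counts stand beside 8.92% of all probe sets called after fetal oil, 5.23% after fetal DBP and 0.441% at GD20. Of the 23 other Sertoli cell genes 5 rose and 3 fell, with a median of -0.01 (all probe sets -0.08). Testin, secreted by Sertoli cells at cell junctions, rose from 159 ± 82.2 to 2438 ± 1180 units (3.73 ± 0.36, SE; adjusted p = 4.38e-07, limma). Plat, tissue plasminogen activator, rose from 113 ± 17.3 to 639 ± 171 units (2.25 ± 0.20), and Pdgfa, a growth factor, rose by 1.77 ± 0.24. These 3 had the smallest p of the genes called, and all 3 rose. Among the genes that fell was Nr5a1 (steroidogenic factor 1), at -0.95, which stood in the list for testis determination as well. After fetal DBP 4 of the 23 rose and 3 fell, with a median of -0.15 (all probe sets -0.06). Plat was at 2.44, Testin at 3.14 and Pdgfa at 1.57, and Nr5a1 was again at -0.95. In the fetal testis 1 of the 23 was called, Testin, from 50.7 ± 9.02 to 184 ± 62.1 units (1.54 ± 0.24; adjusted p = 0.0189). That count ran from 0 to 4 over the alternatives, with 0 without any 1 of oil dams 2, 3, 4 and 5 or DBP dams 16 and 19, and 4 without DBP dam 18.

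Beside Vim, 4 of 11 intermediate filament and linker genes rose after the acute dose and 0 fell (median 0.27). Called higher were 4.77% of all probe sets after fetal oil and 3.64% after fetal DBP. Krt19, a simple epithelial keratin, rose from 152 ± 13.5 to 1652 ± 457 units (3.21 ± 0.17, SE; adjusted p = 9.04e-11, limma), Dsp, desmoplakin, by 1.56 and Nes, nestin, by 1.54. After fetal DBP 5 of 11 rose and 0 fell (median 0.32), with Krt19 at 3.17, Nes at 1.60 and Des, desmin, at 0.69, and 3 were called without any 1 of pups 123, 128, 132, 133 and 134. Peritubular myoid markers moved in the same direction: 4 of 7 rose and 0 fell after fetal oil, with sums of 7285 to 8054 units in oil-oil and 9301 to 10380 in oil-DBP. Des stood in both lists, so their counts are not separate. Their sums were 6987 to 7677 in DBP-oil and 9349 to 10070 in DBP-DBP. The part of these cells in the change of Vim was not tested.

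Beside Gata4, the Leydig cell markers had 1 higher and 4 lower of 8 after the acute dose, with sums of 15840 to 21400 units in oil-oil and 6839 to 14350 in oil-DBP. Cyp17a1, the enzyme that makes androgens from progestins, fell by 1.50 on the log2 scale, from 8606 ± 1217 to 3365 ± 1365 units. The 5 Leydig markers called became 2 or 3 without any 1 of oil-oil pups 104, 114 and 120 or oil-DBP pups 111 and 121. Of the 18 genes listed for testis determination 1 fell, Nr5a1 (steroidogenic factor 1, of Leydig and Sertoli cells), at -0.95 ± 0.21 (SE; adjusted p = 0.00597, limma), and 0 rose (4 called without oil-DBP pup 105 and 3 without pup 115). After fetal DBP the same count was 1 lower and 0 higher, again Nr5a1 at -0.95. Spermatid markers had 4 lower of 7 after fetal oil, with sums of 98080 to 130900 and 78340 to 119400 units, and 0 of 7 after fetal DBP. The first of these counts ran from 0 to 5 over the alternatives: it was 0 without any 1 of oil-oil pups 104 and 110 or oil-DBP pups 111, 115 and 121, and 2 without oil-oil pup 114. Spermatocyte markers had 0 of 5 called in either. After fetal oil, 1 of 6 endothelial markers and 1 of 6 markers of blood, liver and epididymis fell, 1 of 8 macrophage and leukocyte markers rose and 1 fell, and 0 of 3 markers of gonocytes and spermatogonia were called. The call in the list of blood, liver and epididymis was lost without any 1 of the 4 oil-oil pups or of oil-DBP pups 111 and 121, and 2 endothelial markers were called without pup 115. After fetal DBP 1 of 6 endothelial and 2 of 8 macrophage and leukocyte markers rose, and 1 of 8 Leydig markers fell. In the lists of blood, liver and epididymis and of gonocytes and spermatogonia 0 were called there. Of all probe sets, 8.92% were called after fetal oil and 5.23% after fetal DBP.

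Beside Fabp3, 2 of 14 genes of iron and fatty acid handling rose and 2 fell. The share of all probe sets called was 8.92% after fetal oil, 5.23% after fetal DBP and 0.441% at GD20. Cpt1a fell by 0.93 on the log2 scale, from 909 ± 95.3 to 506 ± 148 units, Slc27a1, a fatty acid transporter, differed by -0.28 ± 0.07 (SE; adjusted p = 0.0201, limma) and Slc11a2, an iron transporter, rose by 0.56. After fetal DBP 2 rose and 2 fell, with Cpt1a at -0.74, Acsl4, an acyl-CoA synthetase, at 0.73 and Slc11a2 at 0.45. In the fetal testis 1 of 14 was called, Acsl4, from 1875 ± 37.2 to 2923 ± 330 units (0.63 ± 0.08; adjusted p = 0.00518). The 4 genes called became 2 after fetal oil without oil-oil pup 110 or oil-DBP pup 121, and 2 after fetal DBP without any 1 of pups 123, 124, 127, 128, 132 and 135. At GD20 the call of Acsl4 was lost without an intensity trend.

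For FSH and cyclic AMP signalling 3 of 24 rose and 3 fell after the acute dose. The counts of this paragraph stand beside 8.92% of all probe sets called after fetal oil, 5.23% after fetal DBP and 0.441% at GD20. Rgs2, a regulator of G protein signalling, rose by 0.81, Inhba rose from 30.7 ± 17.8 to 311 ± 232 units (2.48 ± 0.53, SE; adjusted p = 0.00414, limma), and Prkar2b, a regulatory subunit of protein kinase A, fell by 0.66 on the log2 scale. After fetal DBP 4 rose and 2 fell, with Rgs2 at 0.79, Inhba at 2.56 and Prkacb at 0.51. Beside Clu, 2 of 9 rose (Hspa1a, a heat shock protein, by 0.55 and C3 by 1.14) and 1 fell, Lrp8, a lipoprotein receptor, at -1.53 from 628 ± 90.1 to 230 ± 98.2 units. C3 was dim, at 19.6 ± 13.0 units in oil-oil, near the added 16, and 63.3 ± 15.2 in oil-DBP (SD, n = 4 each). In the fetal testis Pde4b (0.56) and Prkar2b (0.42) rose among the FSH and cyclic AMP genes, Cited2, a transcriptional co-regulator of the early gonad, rose by 0.37, and Lrp8 fell by 0.48 on the log2 scale. These 4 fetal calls were not stable: without any 1 of oil dams 2, 3, 4 and 5 or of DBP dam 16 none of the 3 lists had a call. At PND35 the 6 FSH and cyclic AMP genes called became 3 after fetal oil without oil-oil pup 114 or oil-DBP pup 111, and 3 after fetal DBP without DBP-oil pup 132. The 3 called beside Clu became 1 without any 1 of oil-oil pup 104 and oil-DBP pups 111 and 121.

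The groups in order of their mean level show how far each gene separated them, on its brightest probe set and as deposited. Array medians differed between the ages, so places across the ages depended on the scaling. Centred on the median, Fabp3 differed with age by 0.16 in the oil groups and 0.23 in the DBP groups. Rhox5 differed by -0.09 in the DBP groups. For Rhox5 the order was GD20 oil, GD20 DBP, oil-DBP, DBP-oil, DBP-DBP and oil-oil, and among neighbours the arrays overlapped except between GD20 DBP and oil-DBP. For Fabp3 it was GD20 oil, GD20 DBP, oil-oil, DBP-oil, oil-DBP and DBP-DBP, and the 1 pair of neighbours without overlap was DBP-oil and oil-DBP. For Gata4 and Vim the fetal groups stood above the peripubertal ones without overlap, and oil-DBP and DBP-DBP followed, each overlapping its neighbour. For Wt1 the neighbours without overlap were GD20 oil and oil-DBP, and DBP-DBP and DBP-oil. For Clu the order was oil-DBP, oil-oil, DBP-oil, DBP-DBP, GD20 DBP and GD20 oil. Its neighbours without overlap were DBP-DBP and GD20 DBP, and GD20 DBP and GD20 oil. Within groups, the coefficient of variation of the main probe sets ran from 2.09% (Wt1 in DBP-DBP) to 74.5% (Rhox5 in oil-oil).

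The genes most like each member over the 16 PND35 arrays, among 9878 genes with a mean of at least 100 units, were named by Pearson's r as a description, since these arrays share tissue, scaling and the 4 groups. Fabp3 was closest to Tst and Slc25a45 (0.97 each) and Vim to Ywhab (0.96) and Ltbr (0.92). Wt1 was closest to Abracl and Nectin2 (0.92 each), Clu to Trnau1ap (0.92) and Ndufa1 (0.91), and Gata4 to Atp1b1 and Fam174c (0.88 each). The closest to Rhox5 were Tob2 (0.77) and Klhl24 (0.75).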

How the data were processed

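Testis RNA was measured on 24 arrays, 1 per sample, in 6 groups of 4 taken from the sample titles. The authors deposited 1 linear intensity per probe set with no detection calls. The submitters' processing notes name GCOS 1.0, and how probes were summarized is not stated in them. No 2 arrays held identical values. Of 31042 probe sets without the 57 controls, 20826 had 1 gene symbol in the platform annotation, 436 several and 9780 none. The deposited intensity was converted to log2(intensity + 16), left as deposited at GD20 and centred on each array's median otherwise. The brightest probe set stood for a gene. Fits used limma 3.58.1 in R 4.3.3 (lmFit, eBayes with trend), with two-sided p-values adjusted by Benjamini-Hochberg across all 31042 probe sets: 8 GD20 arrays, 16 PND35 arrays, or 16 arrays for age (both fetal groups, oil-oil and DBP-oil). The script was tested on simulated data. Alternatives covered scaling, pseudocounts of 1 and 64, a filter at 100 units, trend, array weights, covariates and each array left out. All 6 members, up to 3 called genes per list with the smallest p and the 2 genes most like each member were named. Members and the 14 gene lists were chosen with earlier results of these data known. Some lists shared genes. Des stood with the intermediate filament and the myoid genes. Amh, Dmrt1, Dhh and Nr5a1 stood with the other Sertoli cell genes and those of testis determination. The number of arrays limits the precision. Pups carry no litter label, and adjacent pup numbers were treated as a block in an alternative only.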

Additional observations from a re-analysis of the deposited data

Results flagged for a closer look

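Among 54 groups of 4 arrays (9 probe sets in 6 groups), 3 held an array far from the others by Dixon's criterion, and by chance about 1 in 20 groups would. Clu (1367784_a_at) measured 3491 units in GD20 DBP dam 21, where the other 3 DBP dams lay between 2172 and 2260. Wt1 on its dimmer probe set (1369695_at) measured 666.5 units in DBP-DBP pup 133, where the other 3 lay between 493.9 and 505.3. Gata4 (1387894_at) measured 1212 units in the same pup 133, where the other 3 lay between 1320 and 1337. Pup 133 also had the lowest Fabp3 (3121 units) and Rhox5 (16.6 units) and the highest Vim (8156 units) of its group.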

How the results depend on the processing

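Member values were recomputed 1057 times under 44 alternative settings: 44 lost the call, 3 gained one and 5 turned round with a call on one side. The other 1005 stayed on their side of the threshold, 61 of them with a change of sign and no call. The 5 were all Fabp3 with age: -0.91 (quantile) and -0.49 (as deposited) in the oil groups, and -0.64 (quantile), -0.37 (as deposited) and -0.13 (75th percentile) in the DBP groups. The count of members called at GD20 went from 0 to 1 with only high spike-in arrays. For oil-DBP minus oil-oil it went from 4 to 2 without an intensity trend, without the Trizol arrays and with RNA integrity as a covariate. It was 3 with a pseudocount of 64, the filter on dim probe sets, array weights, the probe set of largest interquartile range or only the groups compared. Leaving out 1 array gave 3 to 4, with 3 without any 1 of oil-oil pups 104 and 110 or oil-DBP pups 105, 111, 115 and 121. For DBP-DBP minus DBP-oil it went from 1 to 0 without the trend, with spike-in class as a covariate, with only high spike-in arrays, and without pup 127 or 133 (leaving out 1 array gave 0 to 1). For DBP-oil PND35 minus DBP GD20 it went from 5 to 3 without the trend, and leaving out 1 array gave 3 to 5, with 3 without pup 127. The cause was not tested. Over all probe sets, the calls at oil-DBP minus oil-oil went from 2770 to 1869 without the trend, 1508 with RNA integrity, 1541 with only the groups compared, 3576 with the filter on dim probe sets and 4607 without pup 105. At GD20 they went from 137 to 10 without the trend, and at DBP-DBP minus DBP-oil from 1623 to 935 with spike-in class as a covariate and 874 with only high spike-in arrays. Groups share no replicate numbers. The labels do not pair adjacent pup numbers. Their deviations correlated at -0.13 to 0.24 over 8 pairs, 1 of them below 0. As a block they gave 3 members (the Rhox5 call was lost) and 1603 probe sets after fetal oil, and 1 member and 2021 probe sets after fetal DBP. The filter at 100 units leaves Rhox5 out at PND35. Dim values limit Rhox5 and the second Clu probe set most, since intensities near 16 carry little signal and there are no detection calls.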
